A study of Homo sapiens with 6 samples.

Results

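The urea cycle and the genes that feed or replace it in ammonia disposal were followed in HepaRG, an established line of human liver origin whose cells become hepatocyte-like or biliary-like once differentiated. The 10 genes were chosen by name: the cycle enzymes CPS1, OTC, ASS1, ASL and ARG1, the activator-forming enzyme NAGS, the mitochondrial carriers SLC25A15 and SLC25A13, liver glutaminase GLS2 and glutamine synthetase GLUL. All 10 have a row among the 58037 genes of the deposited table, and 9 were expressed highly enough to be tested. The study asks how fatty acid loading, used as a model of hepatic steatosis, changes drug-metabolizing enzymes and transporters. It has 6 stranded mRNA sequencing libraries in 2 groups of 3. The control group was kept for 72 h in medium with 0.02% bovine serum albumin, and the fatty acid group for 72 h in medium with 0.5 mM palmitate and oleate (1 part to 2 parts) bound to 0.02% albumin. All cells were differentiated HepaRG of passages 15 to 18, grown for 14 days, differentiated for 14 days and then held for 5 days in basal medium with insulin and hydrocortisone. The labels give the cell type as hepatocellular carcinoma cells and are silent on whether the replicates were separate cultures. The p-values below therefore speak only of differences among these 6 samples, and part of their spread may be technical.

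The urea cycle is the route by which the liver turns toxic ammonia into urea. It begins in the mitochondrion, where CPS1, active only with the N-acetylglutamate that NAGS makes, joins ammonia and bicarbonate into carbamoyl phosphate, and OTC transfers that group to ornithine to give citrulline. SLC25A15 carries ornithine in and citrulline out, and SLC25A13 (citrin) supplies the cytosol with aspartate. In the cytosol ASS1 joins citrulline and aspartate, ASL splits the product into arginine and fumarate, and ARG1 releases urea and returns ornithine. In the liver lobule the cycle and GLS2, which frees ammonia from glutamine, are found mainly in periportal hepatocytes, whereas GLUL, which fixes leftover ammonia into glutamine, is confined to hepatocytes around the central vein.

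With fatty acid CPS1, OTC and ARG1 fell to between 28.3% and 33.7% of their control FPKM. Of the cycle enzymes between OTC and ARG1, ASS1 did not fall and was 112% of control. ASL was 74.0% of control, just outside the threshold used below. FPKM, the unit of the deposited table, scales reads by gene length and by the assigned reads of the library. The length is 1 value per gene, such as 10444 bases for CPS1 and 1585 for OTC. It may differ from that of the transcript in use, so levels compare only roughly between genes. Of the 9 tested members 3 were lower and 0 higher by limma (Benjamini-Hochberg adjusted p under 0.05 over 14661 tested genes), against 4.68% of all tested genes lower and 8.22% higher. At an unadjusted p under 0.05 there were 5 lower and 1 higher member, beside 1673 lower and 2796 higher of the 14661 tested genes. Limma voom on recovered reads gave 4 lower and 1 higher member, beside 1155 and 1842 of all tested genes. In 6 of the 9 the groups did not overlap, where 37.1% of all tested genes had such groups. The median log2 fold change of the 9 was -0.28, beside 0.04 for all tested genes. Log2 fold changes are fatty acid minus control on the log2(FPKM + 0.5) scale, which understates the change of low genes, and are given ± SE.

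Before the values, the start regions of OTC and ARG1, which fell, and of ASS1, which did not, are shown, because their base composition differs. The RefSeq table (GRCh38.p14) holds a window for each of the 10 members, read here as the 250 bases before the annotated start, 5′ to 3′ on the gene's strand. Capitals mark matches, on either strand, to 4 motifs. They were TATAAA for the TATA box, TTGCNNAA for C/EBP, CAAAGTCCA for HNF4 and TGTTCT for the half-site of the glucocorticoid receptor, which shows as its reverse complement in the ARG1 window. The OTC window is chrX:38352354-38352603, that of ARG1 chr6:131572976-131573225 and the upstream of 2 windows of ASS1 chr9:130444457-130444706, all on the plus strand.
OTC: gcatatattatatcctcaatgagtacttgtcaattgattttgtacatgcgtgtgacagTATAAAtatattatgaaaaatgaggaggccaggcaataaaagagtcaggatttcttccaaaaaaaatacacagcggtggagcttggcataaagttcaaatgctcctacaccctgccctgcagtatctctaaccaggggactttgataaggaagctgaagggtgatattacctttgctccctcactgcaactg
ARG1: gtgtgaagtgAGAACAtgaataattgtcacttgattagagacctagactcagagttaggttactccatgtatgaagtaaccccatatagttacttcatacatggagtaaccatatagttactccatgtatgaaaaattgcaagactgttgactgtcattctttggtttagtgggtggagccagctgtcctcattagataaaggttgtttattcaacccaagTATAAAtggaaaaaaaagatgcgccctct
ASS1: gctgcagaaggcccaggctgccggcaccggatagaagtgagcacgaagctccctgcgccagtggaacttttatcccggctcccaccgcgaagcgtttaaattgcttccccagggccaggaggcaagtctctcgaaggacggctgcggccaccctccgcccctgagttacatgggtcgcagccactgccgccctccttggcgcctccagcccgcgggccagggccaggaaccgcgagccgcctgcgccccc
TATAAA stood 29 to 24 bases before the start of ARG1 and 192 to 187 bases before that of OTC, and the half-site 240 to 235 bases before that of ARG1. No other window of the members held any of the motifs. Of all 34943 windows of this length, 10.8% held TATAAA, 9.06% TTGCNNAA, 0.326% CAAAGTCCA and 12.4% TGTTCT. A match is a description of letters, not a bound site. G and C made up 40.4% of the OTC window, 37.6% of the ARG1 window and 33.6%, 48.4% and 40.0% of the 3 CPS1 windows, with 1 to 3 CpG in each. The windows of the 7 other members, which did not pass the test or were not tested, had 65.6% (NAGS) to 79.6% (SLC25A15) G and C, and from 10 (GLS2) to 35 (SLC25A15) CpG. The median over all windows was 58.0% and 11 CpG. CPS1 has several annotated starts, and gene-level values do not tell which was used, so none of its windows is printed. The same doubt holds for ASS1. Its printed window (68.4% G and C) has an annotated start 222 bases from the deposited gene start. Its other window (78.8%) has one 32 bases away. The composition was compared after the values of the members were known and was not tested.

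CPS1, the enzyme of the cycle's committed step (chromosome 2, 210477682 to 210679107), had 39.9, 39.9 and 40.6 FPKM in control replicates 1, 2 and 3, and 13.2, 13.6 and 13.1 FPKM in fatty acid replicates 1, 2 and 3. Every fatty acid library lay far below every control library, and the spread within a group was small (coefficient of variation 1.07% and 2.10%). Counting error alone is 2.94% at the 1154 reads of the shallowest CPS1 value. The log2 fold change was -1.56 ± 0.05, a 2.94-fold fall with a 95% interval of 2.72 to 3.18 (limma adjusted p = 3.06e-05). Of the 14661 tested genes CPS1 had the smallest p, and by size of fall it ranked 31.

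OTC, which makes citrulline in the mitochondrion (chromosome X, 38352545 to 38421450), had 5.28, 6.38 and 7.42 FPKM in the controls and 1.89, 1.58 and 1.94 FPKM with fatty acid. The groups were well apart, though OTC rested on only 25 to 139 reads per library. Its log2 fold change was -1.57 ± 0.13 (limma adjusted p = 0.000544), rank 30 by size of fall.

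ARG1, the cytosolic arginase that ends the cycle (chromosome 6, 131573144 to 131584332), had 14.3, 12.8 and 16.7 FPKM in the controls and 4.50, 5.56 and 4.69 FPKM with fatty acid. Again the groups did not overlap, and the log2 fold change was -1.48 ± 0.11 (limma adjusted p = 0.000403), rank 36. Calls this large were rare: 0.668% of tested genes were called with a log2 fold change of -1 or less, the 3 enzymes among them. ARG1 shares 10367 bases of its span with MED23, a Mediator subunit gene on the opposite strand. MED23 had 3.69 ± 0.281 and 4.74 ± 0.538 FPKM (limma adjusted p = 0.0722). The sources used here do not give the strand setting of the counting, so reads of such overlapping genes may have been shared.

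**Figure D1:**
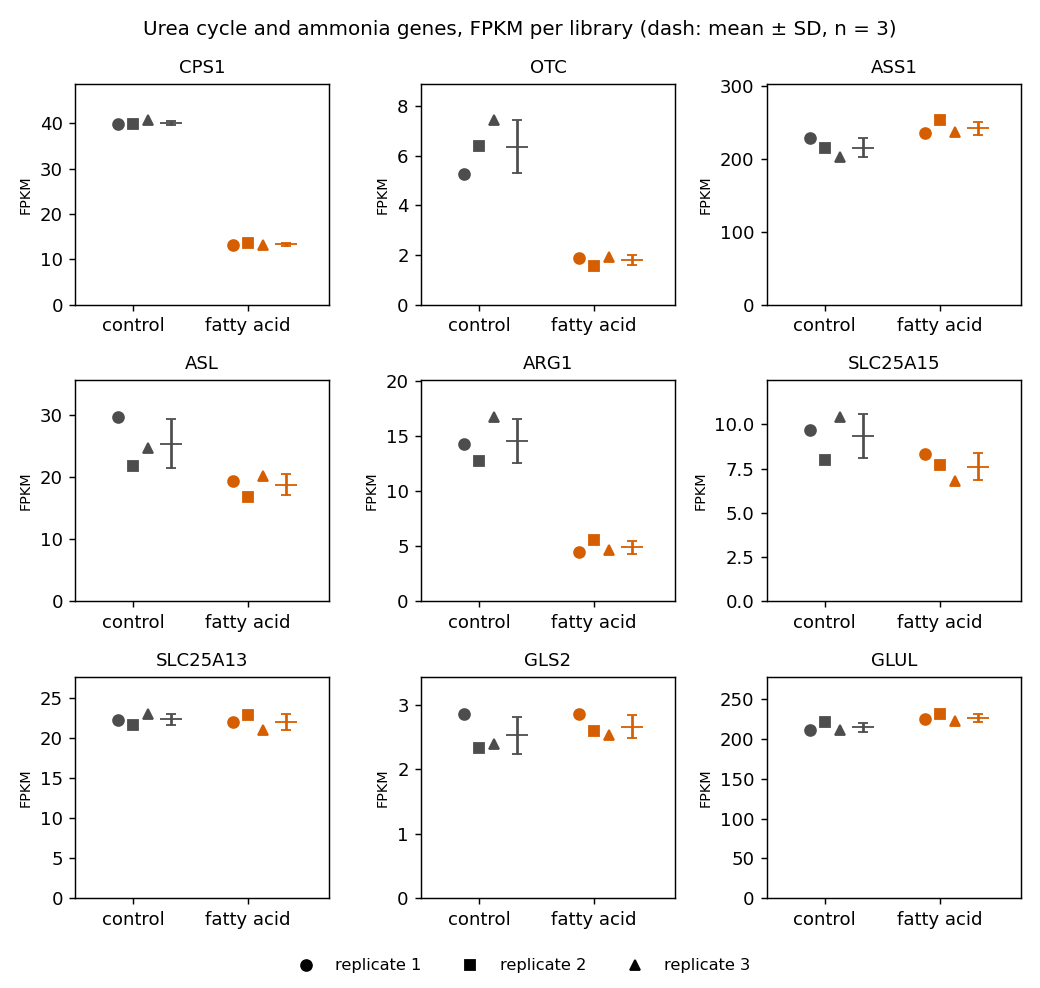
FPKM (vertical axes, from 0) of the 9 tested members in each of 3 control (grey) and 3 fatty acid (orange) libraries, with symbols for the replicate number and a dash with bars for the mean ± SD. CPS1, OTC and ARG1 are clearly lower with fatty acid, ASL is lower with groups close to each other, and the other panels show groups at similar levels. NAGS is left out because its reads were too few.

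ASS1, which joins citrulline to aspartate (chromosome 9, 130444929 to 130501274), stood at 229.5, 215.4 and 202.8 FPKM in the controls and 236.6, 253.0 and 237.0 FPKM with fatty acid. All fatty acid libraries lay above the controls, by a narrow margin. The log2 fold change of 0.17 ± 0.06 did not pass (limma adjusted p = 0.113). It passed only after rescaling to TPM (0.30, adjusted p = 0.0442) and with limma voom on recovered reads (0.17, adjusted p = 0.0469) among the 17 alternatives. The 10 ASS1 pseudogenes in the table held 13 reads in all libraries together, against 17749 control and 28642 fatty acid reads of ASS1.

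ASL, which releases arginine and fumarate (chromosome 7, 66075798 to 66093558), had 29.7, 21.8 and 24.8 FPKM in the controls and 19.4, 16.9 and 20.1 FPKM with fatty acid. The groups did not overlap, but control replicate 2 came close to fatty acid replicate 3. At -0.42 ± 0.12 its log2 fold change lay just outside the threshold (limma adjusted p = 0.0560). ASL kept its side of the threshold in 10 of 17 alternatives and was called in the others, such as without control replicate 2 (-0.52, adjusted p = 0.0334).

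The mitochondrial carriers were not called. SLC25A15, the ornithine and citrulline exchanger (chromosome 13, 40789412 to 40810111), had 9.66, 8.0 and 10.4 FPKM in the controls and 8.33, 7.69 and 6.80 FPKM with fatty acid, so that control replicate 2 lay below fatty acid replicate 1. Its log2 fold change was -0.28 ± 0.11 (limma adjusted p = 0.142). SLC25A13, the aspartate-glutamate carrier of liver (chromosome 7, 96120220 to 96322147), had 22.3, 21.6 and 23.0 FPKM and 22.04, 22.9 and 20.98 FPKM. The groups overlapped in part, with a log2 fold change of -0.02 ± 0.06 (95% interval -0.15 to 0.11, limma adjusted p = 0.821) that turned to 0.11 after rescaling to TPM and to 0.01 without fatty acid replicate 3.

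NAGS, which makes the activator of CPS1 (chromosome 17, 44004546 to 44009063), was near the limit of detection. It had 6 reads in control replicate 1, 1 read in fatty acid replicate 2 and 0 in the other libraries, or 0.237, 0.025 and 0 FPKM, and was not tested. Adjusted for depth the reads were 8.56-fold lower with fatty acid, with a 95% exact interval of 1.04 to 394 that covers counting error only, and all control reads lay in 1 library.

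The glutamine enzymes were not called either. GLS2 (chromosome 12, 56470944 to 56488414) had 2.86, 2.33 and 2.39 FPKM in the controls and 2.86, 2.59 and 2.53 FPKM with fatty acid, and the groups overlapped. Its log2 fold change was 0.07 ± 0.10 (95% interval -0.17 to 0.30, limma adjusted p = 0.695). It shares 8764 bases of its span with SPRYD4 on the opposite strand, which had 718 and 954 reads in the groups. GLUL (chromosome 1, 182381704 to 182392206) had 211.5, 221.5 and 211.5 FPKM in the controls and 225.9, 231.9 and 222.6 FPKM with fatty acid. The lowest fatty acid library was just above the highest control library, and the log2 fold change was 0.08 ± 0.05 (95% interval -0.03 to 0.19, limma adjusted p = 0.296).

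**Figure D2:**
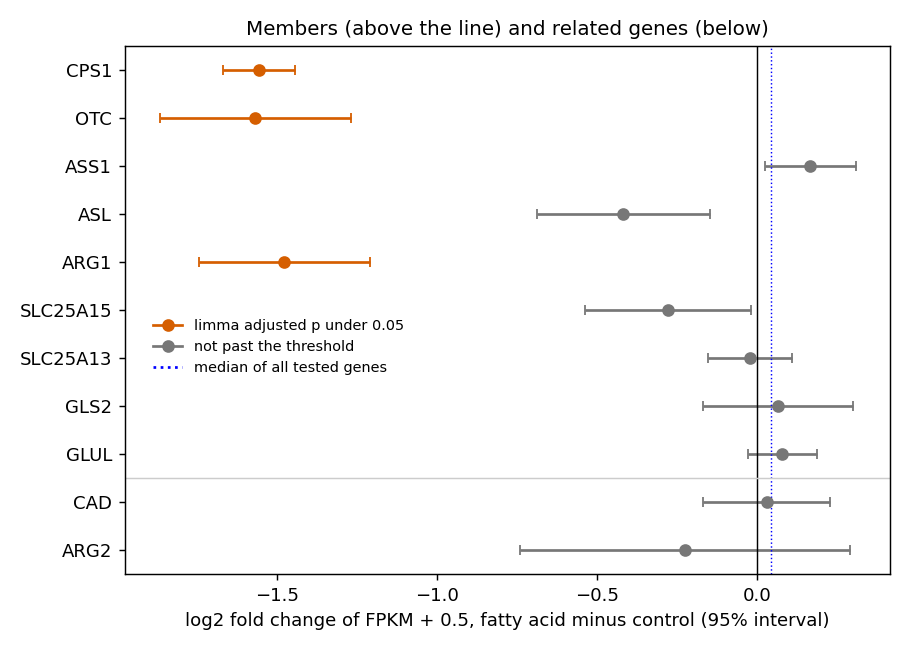
Log2 fold change with its 95% interval (horizontal axis, fatty acid minus control) of the 9 tested members in the order of the cycle and, below the grey line, of 2 related genes. The dotted line is the median of all tested genes. CPS1, OTC and ARG1 (orange) lie between -1.57 and -1.48, and all other points lie between -0.42 and 0.17.

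The order of the levels, which rests on the deposited gene lengths, changed with the falls. In the controls ASS1 (215.9 ± 13.4 FPKM, SD, n = 3) and GLUL (214.8 ± 5.80 FPKM) led and overlapped, followed by CPS1 (40.1 ± 0.428), ASL (25.4 ± 3.98) and SLC25A13 (22.3 ± 0.701), the last 2 of which overlapped. ARG1 (14.6 ± 2.00), SLC25A15 (9.35 ± 1.23), OTC (6.36 ± 1.07) and GLS2 (2.52 ± 0.288) came next, each range above the next. With fatty acid ASS1 (242.2 ± 9.40) and GLUL (226.8 ± 4.70) still led, and CPS1 (13.3 ± 0.280) came after SLC25A13 (21.98 ± 0.967) and ASL (18.8 ± 1.7). SLC25A15 (7.61 ± 0.771) was then above ARG1 (4.92 ± 0.566), and OTC (1.80 ± 0.193) below GLS2 (2.66 ± 0.175). No neighbours in the fatty acid order overlapped. ASS1 and GLUL lay above all but 0.743% and 0.778% of tested genes.

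Ratios of FPKM within a library, which no scaling of whole libraries can alter, showed the same division. ASS1 to CPS1 was 5.76, 5.40 and 4.99 in the controls and 17.9, 18.5 and 18.1 with fatty acid. ASS1 to ARG1 went from 15.0 ± 2.54 to 49.5 ± 3.63 (SD, n = 3), and GLUL to CPS1 from 5.35 ± 0.179 to 17.0 ± 0.0763. The libraries of the groups did not overlap in any of these. CPS1 to ARG1 was 2.78 ± 0.348 and 2.73 ± 0.248, and CPS1 to OTC 6.43 ± 1.05 and 7.47 ± 1.01, with overlapping groups. The size of these ratios rests on the deposited gene lengths, but their change between groups does not. They are given as descriptions with no test.

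**Figure D3:**
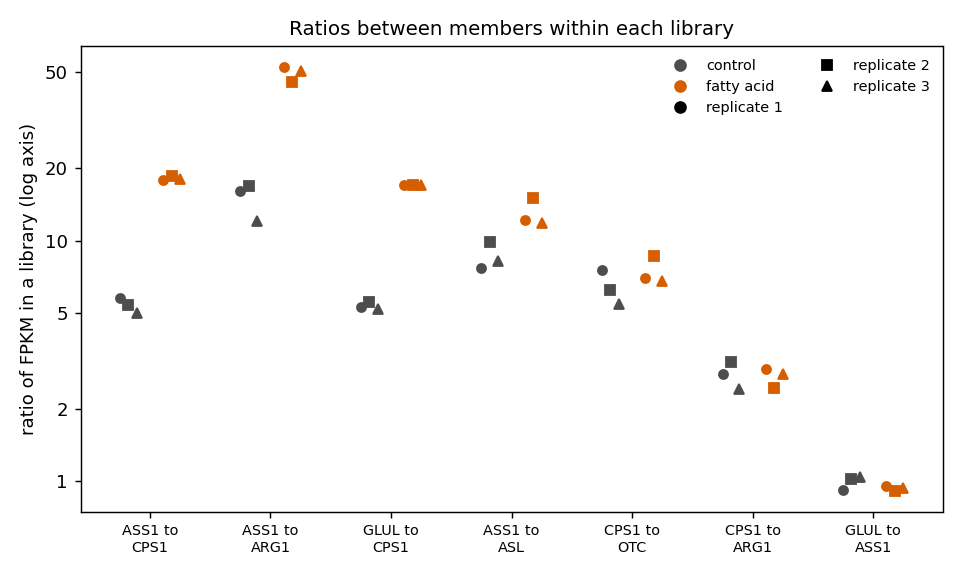
Ratio of FPKM between 2 members in each library (vertical log axis), for control (grey) and fatty acid (orange) libraries, with symbols for the replicate number. Ratios of ASS1 or GLUL to CPS1 and of ASS1 to ARG1 are higher with fatty acid, and those of CPS1 to OTC, CPS1 to ARG1 and GLUL to ASS1 overlap between groups.

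Genes related to the members were not called. CAD, which makes carbamoyl phosphate in the cytosol for pyrimidines, had 7.96 ± 0.639 and 8.14 ± 0.633 FPKM. ARG2, the mitochondrial arginase, had 1.38 ± 0.486 and 1.09 ± 0.25 FPKM. Of these 2 genes limma called 0, where it called 12.9% of all tested genes. At an unadjusted p under 0.05 there were 0, beside 30.5% of all tested genes. Voom gave 0, beside 2997 of all 14661 tested genes. On the log2(FPKM + 0.5) scale CPS1 fell by 1.58 against CAD and ARG1 by 1.25 against ARG2, each with p = 0.1 in an exact two-sided permutation test, the smallest that 3 against 3 can give (0.1 adjusted over these 2 pairs). The other related carriers were hardly detected: SLC25A2, the second ornithine carrier, had 1 read in all libraries, and SLC25A12, the aspartate-glutamate carrier of muscle and brain, 0 to 6 reads per library.

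Ammonia-releasing and transaminating enzymes, listed together with ASNS and the carbonic anhydrase CA5B, went in different directions. Of 10 tested genes in this list 2 were higher and 2 lower, where 8.22% and 4.68% of all tested genes were. Their median log2 fold change was 0.05. GLUD1, the mitochondrial glutamate dehydrogenase that frees ammonia, fell to 41.3 ± 1.11 from 54.6 ± 3.09 FPKM (limma adjusted p = 0.00647). The cytosolic alanine transaminase GPT fell from 6.34 ± 0.862 to 3.23 ± 0.539 FPKM (0.00815). The mitochondrial alanine transaminase GPT2 rose from 3.32 ± 0.366 to 4.56 ± 0.268 FPKM (0.0315). ASNS, which uses glutamine to make asparagine, rose from 6.59 ± 1.23 to 12 ± 2.01 FPKM (0.0152). The ASNS call was lost when fatty acid replicate 1 or 2 was left out (0.0563 and 0.0570). GPT2 was not called on dropping control replicate 2 (0.0661), control replicate 3 (0.0848) or fatty acid replicate 1 (0.102), 2 (0.126) or 3 (0.0699), with the replicate block (0.0585) or with no filter (0.0749).

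Among 12 tested transporters of glutamine, glutamate, basic amino acids and urea, 4 were higher and 2 lower, where 8.22% and 4.68% of all tested genes were. Their median log2 fold change was 0.04. The glutamine carrier of hepatocytes SLC38A3 fell to 2.98 ± 0.469 from 8.84 ± 1.63 FPKM (limma adjusted p = 0.00190). AQP9, a channel for glycerol and urea, fell from 16.1 ± 0.355 to 11.1 ± 0.626 FPKM (0.00279). The glutamine importer SLC38A1 rose from 20.6 ± 1.65 to 31.3 ± 1.90 FPKM (0.00402). The arginine and ornithine importers SLC7A1 and SLC7A2 rose from 5.52 ± 0.401 to 8.36 ± 0.867 FPKM (0.0115) and from 33.4 ± 1.67 to 41.7 ± 1.66 FPKM (0.0159). Dropping fatty acid replicate 1 or 2 ended the calls of SLC7A1 (0.0626 and 0.0602) and SLC7A2 (0.0836 and 0.0793).

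Enzymes that make, use or divert arginine and ornithine gave 2 higher and 3 lower genes of 13 tested, beside 8.22% and 4.68% of all tested genes. Their median log2 fold change was -0.17. GATM, which uses arginine for creatine synthesis, fell from 106.8 ± 8.17 to 56.5 ± 2.59 FPKM (limma adjusted p = 0.000356) in all 17 alternatives. AZIN1, which relieves the inhibition of ornithine decarboxylase, rose from 13.5 ± 0.718 to 17.6 ± 0.892 FPKM (0.0146), a call that ended on dropping fatty acid replicate 1 or 2 (0.0780 and 0.0748). ALDH18A1, of proline and ornithine synthesis, had 19.8 ± 0.574 and 23.8 ± 1.07 FPKM (0.0271), ALDH4A1, of proline breakdown, 14.6 ± 2.10 and 10.2 ± 1.03 FPKM (0.0346), and DDAH1, which clears methylated arginine, 28.2 ± 0.618 and 24.2 ± 1.07 FPKM (0.0427). The last 3 calls were fragile. ALDH18A1 was no longer called on dropping control replicate 3 (0.0723) or fatty acid replicate 1 (0.0969), 2 (0.115) or 3 (0.0611), or without the trend (0.0661). ALDH4A1 lost its call on dropping either control replicate 1 (0.0668) or 3 (0.0921), on dropping fatty acid replicate 1 (0.125) or 2 (0.131), with no filter (0.0894), after rescaling to TPM (0.0537) and without the trend (0.0673). For DDAH1 it ended on dropping control replicate 2 (0.0846) or 3 (0.0941), any of fatty acid replicates 1 (0.105), 2 (0.133) and 3 (0.121), with the replicate block (0.0737), with no filter (0.0625), after rescaling to TPM (0.510) and without the trend (0.0947).

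Of 15 tested regulators 2 fell and 0 rose by limma, where 4.68% of all tested genes fell and 8.22% rose. There were 5 higher and 3 lower at an unadjusted p under 0.05, beside 2796 and 1673 of all 14661 tested genes. Voom gave 4 and 3, beside 1842 and 1155 of all tested genes. The median log2 fold change of the regulators was 0.07. HNF4A, a nuclear receptor that drives many hepatocyte genes, fell from 16.7 ± 1.36 to 11.7 ± 0.715 FPKM (limma adjusted p = 0.00923). KLF15, a factor that promotes amino acid breakdown, fell from 21.4 ± 1.36 to 16.4 ± 0.795 FPKM (0.0148). Dropping fatty acid replicate 1 (0.0547 and 0.0766) or 2 (0.0527 and 0.0750) ended both calls, and rescaling to TPM that of KLF15 (0.0648). CEBPA, a factor known to act on urea cycle genes, had 5.93 ± 1.78 and 3.44 ± 0.637 FPKM (0.0828) and was called with voom (0.00692), with the replicate block (0.0385) and on dropping control replicate 2 (0.0151). CEBPB had 89.6 ± 6.75 and 99.3 ± 2.82 FPKM (0.165), the glucocorticoid receptor NR3C1 7.66 ± 1.17 and 9.18 ± 0.530 FPKM (0.152), and the coactivator PPARGC1A 6.81 ± 1.02 and 8.21 ± 0.501 FPKM (0.148). CEBPB was called after rescaling to TPM (0.0342), as was PPARGC1A (0.0443). NR3C1 and PPARGC1A were called with voom (0.0297 and 0.0270) and on dropping control replicate 2 (0.0323 and 0.0465). The glucagon receptor GCGR lay below the minimum, at 0.341 to 0.783 FPKM in the controls and 0.332 to 0.465 FPKM with fatty acid.

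The next list holds genes that accompany GLUL around the central vein of the liver. Of 8 such genes 4 were expressed highly enough to be tested. Among these 2 fell and 0 rose by limma, where 4.68% of all tested genes fell and 8.22% rose. At an unadjusted p under 0.05 there were 3 lower and 0 higher, beside 1673 and 2796 of all 14661 tested genes. Voom gave 2 lower and 0 higher, beside 1155 and 1842 of all tested genes. The drug-oxidizing CYP1A2 had 3.35 ± 0.316 FPKM in the controls and fell to 0.361 ± 0.118 (limma adjusted p = 0.000221). CYP2E1, which oxidizes ethanol, fell from 17.2 ± 0.805 to 13.5 ± 0.141 FPKM (0.0114), a call that ended on dropping fatty acid replicate 1 (0.0654) or 2 (0.0574) or rescaling to TPM (0.0987).

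Most hepatocyte markers were lower with fatty acid. Of 12 markers 8 were lower and 2 higher, where 4.68% and 8.22% of all tested genes were. Their median log2 fold change was -0.53. Their summed level was 16840 to 17573 FPKM in the controls and 12765 to 13273 FPKM with fatty acid. Most of this sum was ALB, whose own fall set its direction, so the sum does not speak for the other markers. None of the markers was at 0. The transport proteins TTR (279.5 ± 17.5 to 115.7 ± 5.48 FPKM, limma adjusted p = 8.74e-05), TF (184.7 ± 6.24 to 89.1 ± 3.39 FPKM, 8.74e-05) and AHSG (24.6 ± 1.33 to 9.98 ± 0.680 FPKM, 0.000135) fell, as did ALB (12025 ± 318 to 7127 ± 306 FPKM, 0.000882), which quantile normalization (0.184) and the lack of a filter (0.270) left uncalled. The fibrinogen gene FGB rose from 1185 ± 114 to 1937 ± 53 FPKM (0.00194), and the protease inhibitor gene SERPINA1 from 2212 ± 102 to 2666 ± 55.7 FPKM (0.0289). The SERPINA1 call was not followed through the alternatives. In bulk RNA fewer hepatocyte-like cells and less RNA of a gene per cell cannot be told apart.

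Markers of other cells gave few calls. Of 4 tested biliary markers limma called 0, where it called 12.9% of all tested genes. At an unadjusted p under 0.05 there was 1, higher, beside 30.5% of all tested genes in either direction. Voom gave 0, beside 2997 of all 14661 tested genes. The biliary list summed to 361.8 to 435.2 FPKM and 360.7 to 375.1 FPKM. Most of this was KRT19, so the sum does not speak for the other markers. KRT7 had 0.653 ± 0.0327 and 1.04 ± 0.0909 FPKM (limma adjusted p = 0.0852, and 0.0286 without the intensity trend) and KRT19 342.7 ± 36.6 and 316.0 ± 9.49 FPKM (0.369), and EPCAM was listed at 0 in all libraries. Of 6 tested mesenchymal markers 1 was called higher and 0 lower by limma, where 8.22% and 4.68% of all tested genes were. There were 2 higher and 2 lower at an unadjusted p under 0.05, beside 2796 and 1673 of all 14661 tested genes. Voom gave the same counts, beside 1842 and 1155 of all tested genes. The called marker was LUM, a matrix proteoglycan, which rose from 44.3 ± 3.89 to 60.7 ± 1.88 FPKM (0.00846, and 0.0538 without fatty acid replicate 1). The collagen genes COL1A1 (1.41 ± 0.288 and 0.741 ± 0.214 FPKM, 0.0655) and COL3A1 (11.2 ± 0.370 and 9.04 ± 1.03 FPKM, 0.0600) had groups that did not overlap, lower with fatty acid, but did not pass. DCN did not pass either and went the other way, also without overlap (17.9 ± 1.36 and 21.1 ± 0.480 FPKM, 0.0593). In 4 of the 6 tested genes of the list the groups did not overlap, where 37.1% of all tested genes had such groups. The summed level of the list was 100.4 to 110.4 FPKM and 117.5 to 125.3 FPKM, with THY1 listed at 0. LUM was the largest part of it, so this sum does not speak for each marker either. Of 10 immune and endothelial markers only KDR, a VEGF receptor, was expressed highly enough to be tested, and it fell from 40.7 ± 3.48 to 25.6 ± 0.972 FPKM (0.00195). The list summed to 38.0 to 45.1 FPKM and 25.7 to 27.6 FPKM, nearly all of it KDR, with CD3E and CDH5 listed at 0. PECAM1, an endothelial marker too low to be tested, went the other way (0.338 ± 0.0495 and 0.540 ± 0.00208 FPKM). The part of cell composition in the falls of CPS1, OTC and ARG1 was not tested.

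**Figure D4:**
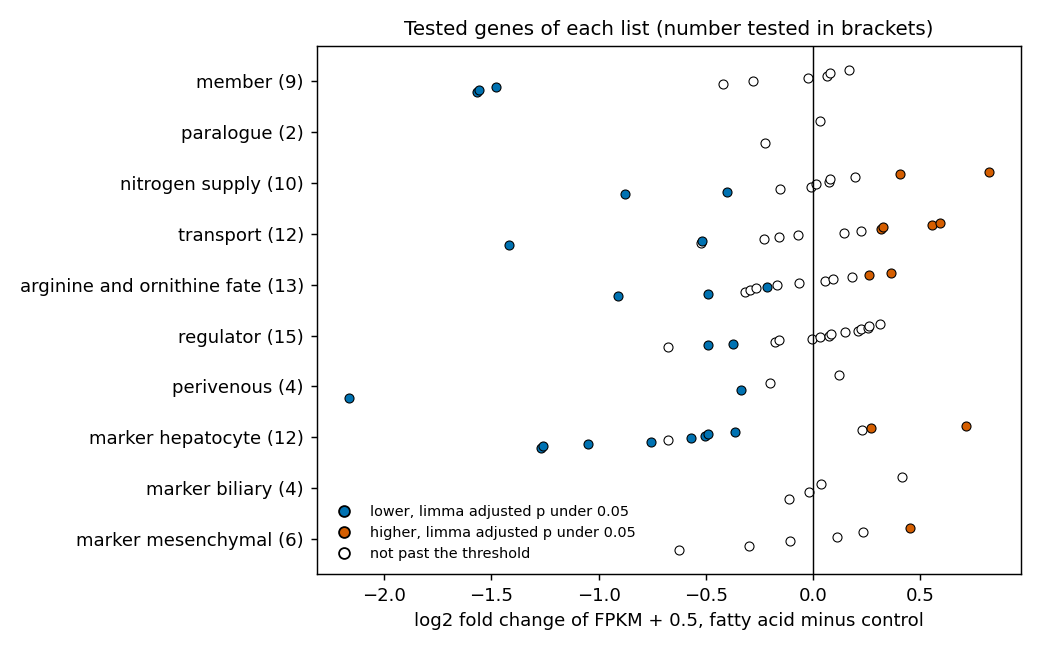
Log2 fold change (horizontal axis, fatty acid minus control) of each tested gene in the members, the further lists and the hepatocyte, biliary and mesenchymal marker lists. Points are blue where lower and orange where higher by limma at an adjusted p under 0.05, open where not past the threshold. KDR, the only tested immune or endothelial marker, is not drawn. CPS1, OTC and ARG1 stand apart from the other members, and most hepatocyte markers lie to the left of 0.

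Among the 3792 other genes averaging 10 FPKM or more, those closest to CPS1 by the distance between their centred log2 values over the 6 libraries were ADH4 (distance 0.272) and RDH16 (0.282). ADH4, an alcohol dehydrogenase, went from 50.9 ± 5.76 to 16.1 ± 1.40 FPKM, and RDH16, a retinol dehydrogenase, from 17.5 ± 2.31 to 5.41 ± 0.348 FPKM. They were picked for this likeness, so their values are a description.

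Over the whole series the libraries held 6331372 to 15941353 assigned reads, and 1891 of the 14661 genes were called (12.9%), 63.7% of them higher. That split depended on scaling, at 46.0% higher when scaled to nuclear genes, 48.8% with the median of ratios, 49.5% with quantile normalization and 86.4% after rescaling to TPM, which moved the all-gene median log2 fold change from 0.04 to 0.16. Mitochondrially encoded genes took 12.2% to 15.0% of reads in the controls and 9.15% to 11.9% with fatty acid, and scaling to nuclear genes left CPS1, OTC and ARG1 called. Dropping a fatty acid replicate left 462 (replicate 1), 486 (replicate 2) or 938 calls (replicate 3), and dropping control replicate 3 left 1053.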

How the data were processed

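RNA was sequenced from 3 control and 3 fatty acid samples of HepaRG cells as stranded mRNA libraries from 100 ng of RNA, per the labels' protocols. The authors deposited FPKM values with gene lengths, and STAR 2.5.2, Subread 1.5.1, featureCounts and the GRCh38 build are named in the submitters' processing notes. FPKM times length gave whole multiples of a step for 100% of values fine enough to tell (tolerance 0.02 reads), so reads were recovered, 6331372 to 15941353 per library, and used for depth, counting intervals and limma voom.

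Groups came from the sample titles. Genes averaging 0.5 FPKM or more entered a limma 3.58.1 fit (R 4.3.3, intensity trend, no covariate) on log2(FPKM + 0.5) with Benjamini-Hochberg adjustment, threshold 0.05. A p beside a gene is the limma adjusted p. The fit was run on simulated reads with the same extra spread for all genes and only depth differing between libraries of a group. That setting is simpler than these data, so the run checks the code and not how the fit behaves here. Python 3.11.15, scipy 1.17.1 and matplotlib 3.10.9 were used for the rest.

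The members and lists were chosen with earlier results of these data known. Named genes were all members, their paralogues, up to 5 called genes per list with the smallest adjusted p (the 2 smallest where none passed), 6 regulators and the genes most like CPS1, of which some are not reported here. SPRYD4, MED23, SERPINA1, COL1A1, COL3A1, DCN, PECAM1 and genes at or near 0 were named after their values were seen. Alternatives were pseudocounts of 0.1 and 1, no filter, a minimum of 2 FPKM, 4 other scalings, no trend, voom, a replicate block and leaving out each library.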

Additional observations from a re-analysis of the deposited data

How the results depend on the processing

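CPS1, OTC and ARG1 kept their direction and their call in all 17 alternatives, with log2 fold changes of -1.61 to -1.42, -1.82 to -1.38 and -1.58 to -1.35. The called members numbered 3 or 4 lower in every alternative, and 0 higher except 1 (ASS1) after rescaling to TPM and 1 with voom on recovered reads. Calls over all genes numbered 1891, and 977 with no filter, 3027 after rescaling to TPM, 1101 without the trend, 2997 with voom and 462 to 1612 with a library left out. The cause of these differences was not tested. Log2 differences near 0 changed sign in a few cases. After rescaling to TPM SLC25A13 was 0.11 and KRT19 0.0245. CAD was -0.00955 with the median of ratios and -0.0214 when scaled to nuclear genes. With a library left out SLC25A13 ranged from -0.0521 to 0.010 and CAD from -0.0345 to 0.0919. The cause was not tested.

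Deviations of same-numbered replicates from their group means were weakly correlated (0.0122, 0.0836 and 0.0224), those of other pairs from -0.094 to 0.0731. Of 3 control replicates 2 correlated best with their own number (control replicate 1 did so with fatty acid replicate 3, 0.0731). With 3 libraries in a group this check is weak and does not show that pairing is absent. The numbers were not taken as pairs. The replicate block gave 1474 calls and left 4 members lower, ASL among them (limma adjusted p = 0.0317). Depth limits NAGS, with 6 control reads and 1 fatty acid read, and OTC, with 25 reads in its shallowest library.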

Other observations

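GLUL stood at 211.5 to 231.9 FPKM in every library, while 4 of 8 other genes known from the same perivenous zone had few reads. The ammonia channel gene RHBG had 4, 1 and 0 reads in the controls and 0 in the fatty acid libraries, the glutamate importer SLC1A2 0 to 9 reads per library, and the stem cell receptor LGR5 2 to 12. OAT, the ornithine aminotransferase that links ornithine to glutamate, had 0 or 1 read in each library, and PYCR1, of proline synthesis, was listed at 0 in all 6. AXIN2, a target of WNT signalling, had 4.46 ± 0.148 and 3.82 ± 0.221 FPKM (SD, n = 3, limma adjusted p = 0.117), and TBX3, a transcription factor, 1.93 ± 0.334 and 2.14 ± 0.276 FPKM (limma adjusted p = 0.577). VIM, a mesenchymal marker, had 1 to 6 reads per library. Whether the counting or the annotation set the values at or near 0 of OAT, PYCR1, VIM, EPCAM and THY1 could not be settled from the deposited table. These genes were singled out after their values were seen.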
